A study of Homo sapiens with 6 samples.

Results

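The genes described here are 10 genes of the TREX complex and its export receptor: THOC1, THOC2, THOC3, THOC5, THOC6 and THOC7, the helicase genes DDX39A and DDX39B, the adaptor gene ALYREF, and NXF1. They were chosen by symbol, through the gene identifiers of GENCODE release 29, and not by any measured value. All 10 were found among the 58780 genes of the deposited tables that matched this release, and they hold 150 of the 206761 matching transcript entries. The libraries were made from HCT116, an established human colorectal carcinoma line. One group of 3 biological replicates was given auxin for 16 h and the other group of 3 was given DMSO, the solvent alone. Auxin is a plant hormone that triggers degradation of a protein fused to a degron. The labels name neither the protein that auxin removes here nor any allele of the line, and they do not say whether the replicates came from separate clones. Total RNA was depleted of ribosomal RNA and sequenced in paired-end reads of 151 cycles, so nuclear and cytoplasmic RNA cannot be told apart. The series title concerns nuclear speckles, nuclear bodies rich in RNA and splicing factors, in which TREX proteins are also found.

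TREX (transcription-export complex) joins the making of an mRNA to its exit from the nucleus. Its THO core, built from the THOC proteins, is brought to the RNA during transcription and splicing together with a DEAD-box ATPase, DDX39B (also called UAP56) or its close relative DDX39A (URH49). ATP-driven clamping of the helicase loads adaptors such as ALYREF, which pass the mRNA to the receptor NXF1 and its partner NXT1 for transit through the nuclear pore.

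Total expected counts, which are estimated read numbers, ran from 234037969 to 625895062 per library, and replicate 1 was the deepest library of each group. Replicate 1 of both groups also stood apart from replicates 2 and 3 on the second principal component, which held 14.5% of the variance. Results from replicates 2 and 3 alone are therefore also given for some of the genes and transcripts below. Of 10 epithelial marker genes, 6 had a TPM (a level scaled by transcript length and to the same total in every library) of at least 1 in every library, and their summed TPM was 1726 to 2377 in DMSO and 2209 to 2650 after auxin. VIL1, CDX1, LGR5 and ASCL2, markers of intestinal epithelium and its stem cells, had at most 0.02 TPM. No endothelial, erythroid or fibroblast marker reached 1 TPM in every library. Of 3 leukocyte markers only CD68 did, and the summed TPM of that list was 39.5 to 65.7 in DMSO and 10.7 to 19.1 after auxin; PTPRC and CD3E were listed at 0.

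Expression was compared as CPM, read counts relative to library size scaled with TMM factors, and tested with edgeR's quasi-likelihood test over 19725 genes. A gene was called at a Benjamini-Hochberg adjusted p under 0.05. Among the 10 genes, 2 were called higher after auxin (THOC2 and THOC7) and 3 were called lower (THOC6, DDX39A and ALYREF). Over all genes tested, 25.4% were called higher and 26.9% lower, so the member counts lie near the background. Groups did not overlap for 7 of the 10 genes, against 60.3% of all genes. The median log2 fold change was -0.12 for the 10 genes and 0.02 for all genes. What stood out was size: THOC6 and DDX39A were lower by more than 4-fold, which was true of 4.9% of all genes tested. With the replicate number as a block in the fit, 3 genes were called higher and 5 lower, against 35.5% and 34.4% of all genes. Whether lower RNA reflects every cell or fewer cells carrying the RNA cannot be told apart in these bulk samples.

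**Figure D1:**
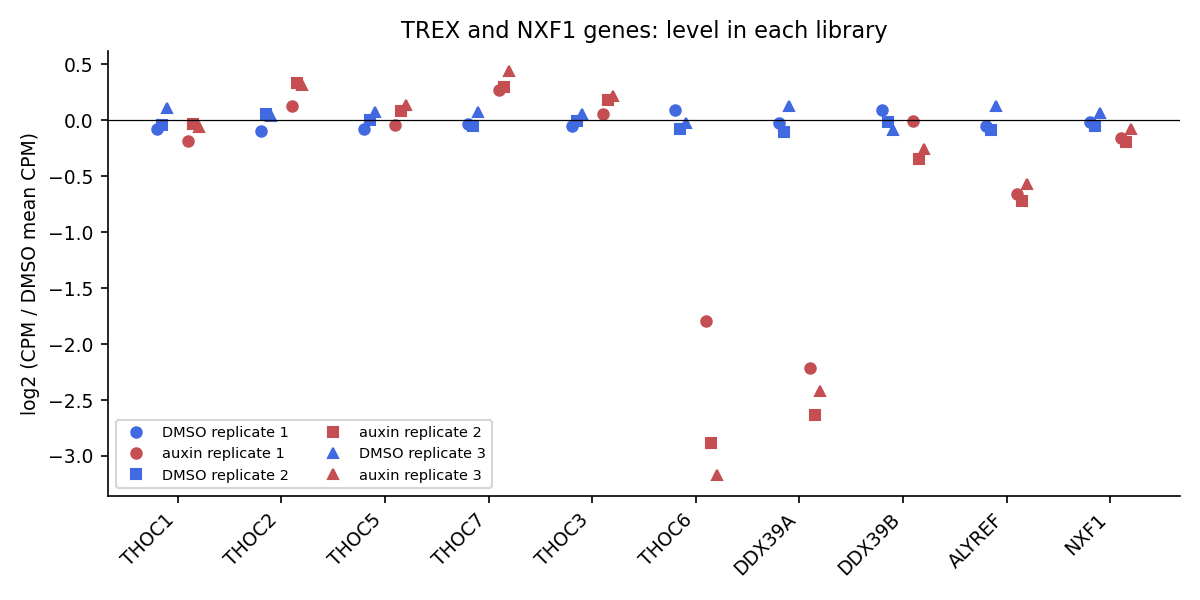
Level of each TREX and NXF1 gene in each of the 6 libraries, as the log2 ratio of its CPM to the DMSO mean (y axis), with DMSO libraries in blue, auxin libraries in red, and 1 symbol shape per replicate number. THOC6 and DDX39A sit far below their DMSO libraries in all 3 auxin libraries, ALYREF lies moderately below, and the remaining 7 genes stay within about 0.5 of the DMSO mean.

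In the THO core, most subunits differed little between the groups and THOC6 alone was called lower. THOC2 (ENSG00000125676.19, chrX:123600561-123733056), the large scaffold subunit, had 196, 218 and 215 CPM in DMSO replicates 1, 2 and 3 and 229, 264 and 261 CPM after auxin. The groups did not overlap, and the log2 fold change was 0.26 ± 0.08 (SE; adjusted p 0.0280). That call was lost when any 1 library other than auxin replicate 1 was left out (adjusted p 0.0697 to 0.103), while with the replicate block the adjusted p was 7.49e-05. THOC7 (ENSG00000163634.11, chr3:63833870-63863903), a small coiled-coil subunit, had 46.5, 45.9 and 50.03 CPM in DMSO and 57.4, 58.3 and 64.5 CPM after auxin. Every auxin library lay above every DMSO library, with a log2 fold change of 0.34 ± 0.07 (adjusted p 0.00446). Neither gene was called when the deposited TPM values were tested instead with limma (adjusted p 0.589 and 0.602 for THOC2, and 0.561 and 0.555 for THOC7, with 1 and 0.1 TPM added).

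THOC3 (ENSG00000051596.9, chr5:175917873-176034680), a WD-repeat subunit, had 63.7, 65.6 and 68.28 CPM in DMSO and 68.31, 74.6 and 76.6 CPM after auxin. The groups touched without overlapping, and the log2 fold change of 0.15 ± 0.06 missed the threshold (adjusted p 0.0761). With the replicate block it passed (adjusted p 0.00148), as it did from replicates 2 and 3 alone (adjusted p 0.0118). THOC5 (ENSG00000100296.13, chr22:29505879-29555216), which pairs with THOC7 in the core, had 71.8, 75.6 and 79.3 CPM in DMSO and 73.5, 79.9 and 83.0 CPM after auxin. The ranges overlapped, and the log2 fold change was 0.06 ± 0.07 (adjusted p 0.491). THOC1 (ENSG00000079134.11, chr18:214520-268050), a core subunit, had 18.9, 19.4 and 21.4 CPM in DMSO and 17.5, 19.5 and 19.1 CPM after auxin. Its ranges overlapped too, with a log2 fold change of -0.09 ± 0.08 (adjusted p 0.376).

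THOC6 (ENSG00000131652.13), another WD-repeat subunit, is a short gene on the plus strand at chr16:3024027-3027755. It had 4.92, 4.36 and 4.54 CPM in DMSO and 1.33, 0.623 and 0.510 CPM after auxin. No auxin library came near a DMSO library, and auxin replicate 1 was the highest of its group. The means were 4.60 ± 0.285 and 0.821 ± 0.445 CPM (SD, n = 3 each), a 5.51-fold decrease (edgeR log2 fold change -2.46, SE 0.35, adjusted p 0.000929). From replicates 2 and 3 alone the log2 fold change was -2.97 (adjusted p 2.43e-08). On the log2(TPM + 1) scale, which understates the change of a low gene, the difference was -1.50 (limma adjusted p 0.00920). THOC6 was also the scarcest of the 10 genes, with 113 to 2961 expected counts per library. Relative to the other 5 THO genes, its CPM was 8.17%, 6.96% and 6.88% of their geometric mean in the DMSO libraries. CPM is not scaled by transcript length, so the size of this ratio also reflects length. After auxin the same ratio was 2.05%, 0.880% and 0.701%.

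The mixture of THOC6 transcripts also differed. A transcript's share is its TPM as a percentage of the TPM of its gene, and its log2 ratio to the other transcripts of the gene was tested with limma over 46214 transcripts. In that test 12.6% of transcripts were called higher and 6.37% lower. THOC6-208, a 2-exon entry of 1143 bases annotated as a retained intron, made up 4.05%, 2.52% and 2.36% of THOC6 in DMSO and 78.3%, 72.0% and 71.1% after auxin. It went from a trace to the main entry in all 3 auxin libraries, a change of 5.27 ± 0.22 in the log2 ratio (SE; limma adjusted p 0.000197). THOC6 met the minimum of 1 TPM for this test only through the DMSO libraries (means of 4.00 and 0.787 TPM), and it was not tested at a minimum of 5 TPM. THOC6-202, the 13-exon protein-coding form, had shares of 53.6%, 71.3% and 81.7% in DMSO and 0%, 16.0% and 0% after auxin. Its log2 ratio fell by 3.78 ± 0.71 (adjusted p 0.0133), a call that was lost without DMSO replicate 2 (adjusted p 0.0518). The sizes depended on the 0.1 TPM added before taking logs: with 1 TPM added the change was 2.48 for THOC6-208 and -1.45 for THOC6-202, and on expected counts the latter was -6.05. THOC6-207, a 14-exon entry with mean shares of 24.7% in DMSO and 16.4% after auxin and overlapping ranges, was not called (adjusted p 0.948). THOC6-205, a further retained-intron entry, was called higher (adjusted p 0.0199), yet its shares overlapped, at 0.885% to 3.68% in DMSO and 0% to 4.44% after auxin. Its call was lost on shares of expected counts (adjusted p 0.170) and without DMSO replicate 2 or 3 or auxin replicate 2 or 3 (adjusted p 0.0576 to 0.0739).

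Introns 2 to 5 of THOC6-202 lie whole inside the last exon of THOC6-208, and the spliced mRNA lacks them. Other retained-intron entries of the gene hold some of introns 2 to 4, and unspliced precursor in total RNA holds all of them, so reads there do not belong to THOC6-208 alone. They are shown because they set it apart from the spliced mRNA; capitals mark the first 2 and last 2 bases of each intron. Sequences are from GENCODE 29 transcripts (GRCh38, plus strand), at chr16:3025824-3025923, chr16:3025989-3026062, chr16:3026167-3026250 and chr16:3026289-3026364.
THOC6 intron 2: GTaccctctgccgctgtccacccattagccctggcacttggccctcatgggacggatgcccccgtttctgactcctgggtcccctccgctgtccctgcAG
THOC6 intron 3: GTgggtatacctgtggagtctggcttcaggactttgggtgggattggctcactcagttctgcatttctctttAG
THOC6 intron 4: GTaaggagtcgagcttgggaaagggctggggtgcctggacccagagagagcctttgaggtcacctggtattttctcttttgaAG
THOC6 intron 5: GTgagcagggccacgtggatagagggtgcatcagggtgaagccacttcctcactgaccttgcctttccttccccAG
All 4 are very short, at 100, 74, 84 and 76 bases, and all begin with GT and end with AG. Intron 2 was the richest in GC, at 66.0%, followed by intron 5 at 59.2% and intron 4 at 53.6%. Of the 12 introns of THOC6-202, 10 are of 100 bases or fewer and the median is 88 bases, the shortest median among the 10 genes.

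The share of the retained entry rose on a small base. THOC6-208 had 0.22, 0.08 and 0.08 TPM in DMSO and 1.12, 0.36 and 0.32 TPM after auxin. Its level was higher in every auxin library than in any DMSO library, and a test of transcript levels, added after the data were seen, gave a log2 fold change of 2.39 ± 0.52 (edgeR adjusted p 0.0248, where 8.43% of 83072 transcripts were called higher and 11.2% lower). THOC6-202 had 2.91, 2.26 and 2.77 TPM in DMSO and 0, 0.08 and 0 TPM after auxin. The loss of spliced entries was therefore larger than the gain of the retained entry on the TPM scale. HCFC1R1 and BICDL2, which overlap THOC6 on the opposite strand by 260 and 74 bases, had log2 fold changes of -1.41 ± 0.12 and -1.52 ± 0.32 (adjusted p 9.12e-05 and 0.00559). Whether the authors counted by strand is not given in the sources used here, and the part of these neighbours in the THOC6 values was not tested.

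Of the paired helicase genes, DDX39A fell sharply and DDX39B did not pass the test. DDX39A (ENSG00000123136.14, minus strand, chr19:14408819-14419383) had 23.1, 21.9 and 25.7 CPM in DMSO and 5.07, 3.78 and 4.40 CPM after auxin. All 3 auxin libraries sat tightly together far below the DMSO libraries. The means were 23.5 ± 1.95 and 4.42 ± 0.645 CPM (SD, n = 3 each), a 5.32-fold decrease, and the edgeR log2 fold change was -2.41 ± 0.13 (SE, with an adjusted p of 1.13e-05). The call held in each of the 6 fits that left out 1 library (log2 fold change -2.52 to -2.31). DDX39A shares long stretches of sequence with DDX39B, but the deposited posterior standard deviation of its count was 0 in every library, and no other annotated gene overlaps it.

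DDX39B (ENSG00000198563.13, minus strand, chr6:31530219-31542448) had 121, 112 and 107 CPM in DMSO and 113, 89.2 and 95.2 CPM after auxin. It was lower after auxin in each of the 3 replicate pairs, but the groups overlapped and the log2 fold change of -0.20 ± 0.10 was not called (adjusted p 0.135). It was called with the replicate block (adjusted p 0.00358), from replicates 2 and 3 alone (-0.25, adjusted p 0.00235) and without auxin replicate 1 (-0.30, adjusted p 0.0146). As a share of the summed TPM of the helicase pair, DDX39A made up 18.4%, 18.6% and 21.4% in DMSO and 4.87%, 4.60% and 4.88% after auxin. On this scale the balance lay further towards DDX39B in every auxin library. The TPM of both genes includes retained-intron entries, with mean shares of 42.4% in DMSO and 51.7% after auxin in DDX39B. In DDX39A those shares were 9.34% and 54.4%. The readthrough gene described next is left out, so the percentages are not a ratio of coding mRNAs.

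DDX39B lies within a readthrough gene, ATP6V1G2-DDX39B, on the same strand, and reads from the 12230 bases they share had to be divided by the authors' model. The readthrough entry had 64.8, 69.2 and 69.1 CPM in DMSO and 56.2, 54.2 and 51.9 CPM after auxin. Its groups did not overlap, and it was called lower (log2 fold change -0.32 ± 0.06, edgeR adjusted p 0.00247). Summed over both entries, the locus had 186, 182 and 176 CPM in DMSO and 169, 143 and 147 CPM after auxin. The sums did not overlap either, with a two-sided exact permutation p of 0.1, the smallest that 3 against 3 libraries can give.

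DDX39A also changed in its transcripts. DDX39A-201, the 11-exon protein-coding form, made up 69.5%, 77.3% and 79.1% of the gene in DMSO and 28.9%, 46.5% and 41.1% after auxin. Its share dropped in every library, with a change of -2.23 ± 0.32 in the log2 ratio (limma adjusted p 0.00507; adjusted p 0.0930 in edgeR's diffSpliceDGE transcript test). DDX39A-209, a 9-exon entry of 1903 bases annotated as a retained intron, had 8.75%, 4.73% and 5.32% in DMSO and 49.9%, 35.0% and 39.3% after auxin. Its share exceeded that of the coding form in auxin replicate 1 and stayed below it in auxin replicates 2 and 3, a change of 3.36 ± 0.31 (adjusted p 0.00105). The retained-intron entries DDX39A-204 and DDX39A-212 had mean shares of 0.536% and 0.426% in DMSO and of 4.46% and 3.58% after auxin. They reached the 2% mean share needed for testing only through the auxin libraries, where they are high, so their values are given with no test. DDX39A-202, which lacks a 110-base exon and is annotated as a target of nonsense-mediated decay, went from 12.5% to 13.5% in DMSO to 0.545% to 7.37% after auxin without passing the test (adjusted p 0.238).

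On the TPM scale the retained entry itself was level while the coding entry dropped. DDX39A-209 had 1.99, 0.70 and 0.96 TPM in DMSO and 1.83, 0.76 and 1.06 TPM after auxin. Each auxin library was close to the DMSO library of the same number, and the transcript level was not called (log2 fold change 0.21 ± 0.32, edgeR adjusted p 0.729). DDX39A-201 had 15.8, 11.4 and 14.3 TPM in DMSO and 1.06, 1.01 and 1.11 TPM after auxin. Its level fell by 3.53 ± 0.19 on the log2 scale (adjusted p 0.000275). In THOC6, by contrast, the level of the retained entry THOC6-208 was called higher; the difference between the genes was not tested.

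DDX39A-209 holds introns 6 and 8 of DDX39A-201, of 342 and 88 bases, with GC contents of 63.7% and 67.0%. They are shown as the bases that set it apart from the coding form, with intron 8 whole and intron 6 by its first 60 and last 60 bases; capitals mark the first 2 and last 2 bases of an intron (GENCODE 29, GRCh38, minus strand). Intron 8 lies at chr19:14409448-14409535 and intron 6 at chr19:14409874-14410215. DDX39A-206 also holds both introns, and DDX39A-207 and DDX39A-217 hold intron 6. Unspliced precursor in total RNA holds both too, so reads there do not belong to DDX39A-209 alone.
DDX39A intron 8: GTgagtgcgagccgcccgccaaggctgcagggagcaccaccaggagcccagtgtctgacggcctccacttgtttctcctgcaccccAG
DDX39A intron 6 start: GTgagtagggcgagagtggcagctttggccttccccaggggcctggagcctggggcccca
DDX39A intron 6 end: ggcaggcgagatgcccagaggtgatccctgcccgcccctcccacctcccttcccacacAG
Introns of DDX39A-201 are longer than those of THOC6-202, with a median of 333.5 bases, and 3 of its 10 are of 100 bases or fewer.

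**Figure D2:**
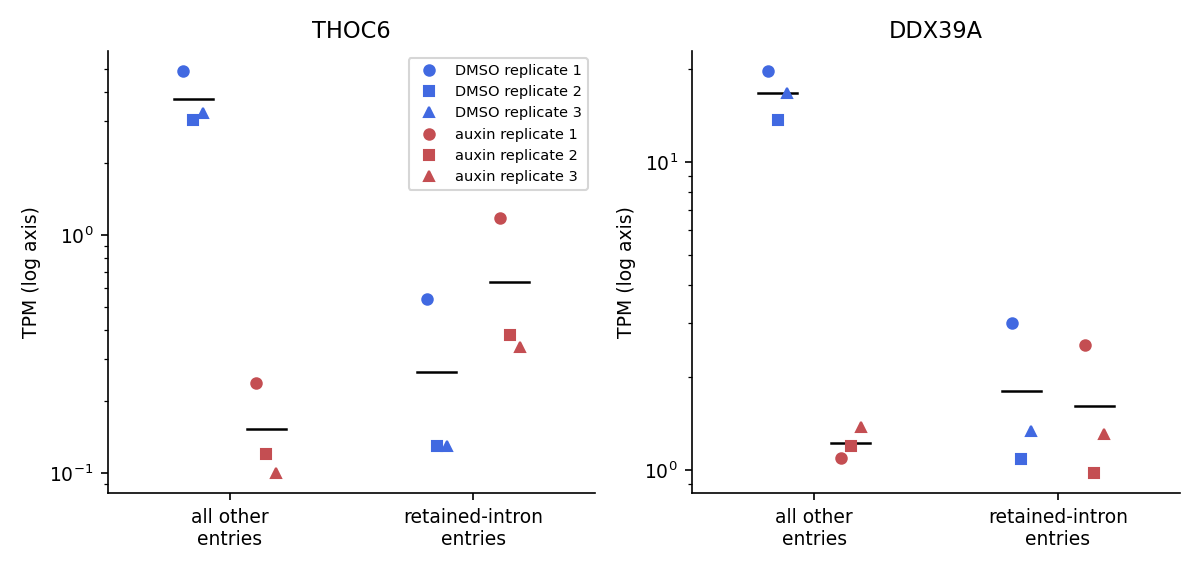
TPM of retained-intron entries and of all other entries of THOC6 (left) and DDX39A (right) in each library, on log axes, with black lines at the group means, DMSO in blue and auxin in red. In both genes the other entries drop in every auxin library, from 3.73 to 0.153 TPM in the mean for THOC6 and from 16.7 to 1.23 TPM for DDX39A, while the retained-intron entries of DDX39A stay in the same range.

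Summing all retained-intron entries of a gene avoids the split between similar entries. The summed share was tested with limma over 4418 genes, of which 25.3% were called higher and 2.35% lower. In THOC6 it was 9.94%, 4.10% and 3.84% in DMSO and 82.5%, 76.0% and 75.6% after auxin. The change in the log2 ratio was 4.89 ± 0.33 (adjusted p 9.13e-05), or 2.35 with 1 TPM added and 5.91 on expected counts. Here too THOC6 met the minimum of 1 TPM only through the DMSO libraries (means of 4.00 and 0.787 TPM), which limits this test. Its other entries summed to only 0.24, 0.12 and 0.10 TPM after auxin, close to the 0.1 TPM added. In DDX39A it was 13.2%, 7.37% and 7.43% in DMSO and 69.5%, 45.2% and 48.5% after auxin. That was a change of 3.51 ± 0.42 (adjusted p 0.000745), and in both genes every auxin library lay far above every DMSO library. Of the 10 genes, 6 had enough retained-intron signal to be tested, and the remaining 4 of those 6 were not called. DDX39B had 47.2%, 42.2% and 37.9% in DMSO and 63.6%, 43.8% and 47.8% after auxin (adjusted p 0.303). NXF1 had 4.05%, 4.84% and 4.60% in DMSO and 4.79%, 3.45% and 4.28% after auxin (adjusted p 0.869). THOC1 and THOC2 gave adjusted p 0.933 and 0.501. In DDX39B the entries annotated as retained introns were thus already a large part of the gene in DMSO. DDX39B-217 alone had a mean share of 31.7% there, but it holds no whole intron of the coding form DDX39B-201. The entries that do, DDX39B-215 and DDX39B-219, had DMSO means of 6.77% and 3.84%. Replicate 1 had the highest summed share of its group in both groups for THOC6, DDX39A, DDX39B, THOC1 and THOC2.

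**Figure D3:**
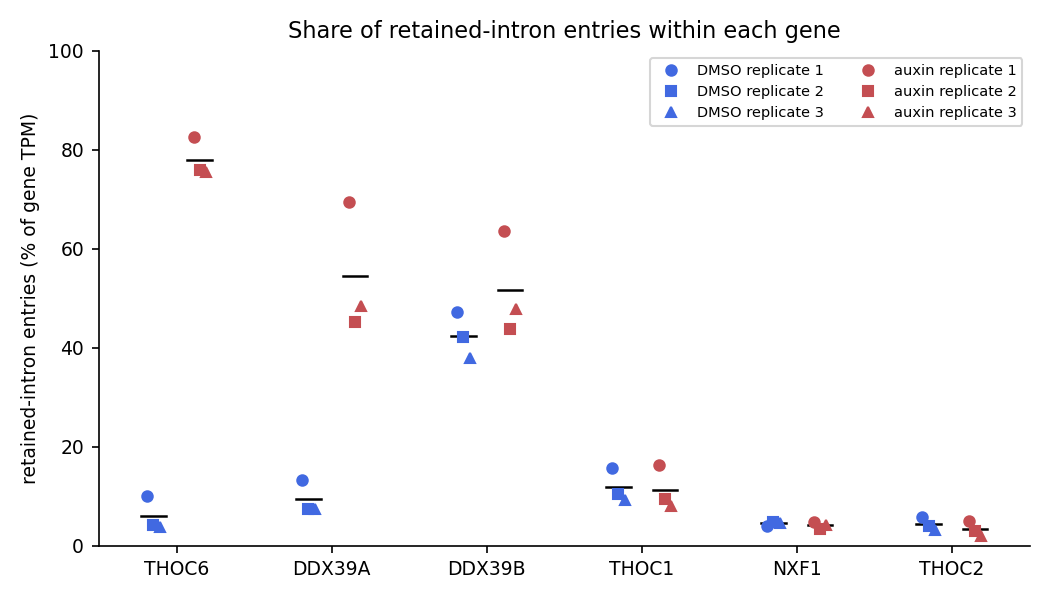
Summed share of retained-intron entries in the TPM of each gene (y axis, percent) for the 6 genes tested, with DMSO libraries in blue, auxin libraries in red and black lines at the group means. THOC6 and DDX39A separate widely, from means of 5.96% and 9.34% to 78.0% and 54.4%, whereas the libraries of DDX39B, THOC1, NXF1 and THOC2 overlap.

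Of the DDX39B transcripts, 2 minor ones reached the 2% mean share needed for testing only through the DMSO libraries, where they are high. Their values are given with no test. DDX39B-221, a 6-exon entry, had shares of 6.25%, 3.06% and 3.81% in DMSO and 1.40%, 1.09% and 1.03% after auxin. DDX39B-214, an 11-exon entry, had 3.53%, 4.38% and 5.31% in DMSO and 0.869%, 2.24% and 0.991% after auxin. Neither overlapped between the groups, but the filter favours entries that separate in this way, so the lack of overlap gives no support. Shifts larger in percentage points but smaller in the log2 ratio (-0.98 and 0.74) were seen in the main DDX39B forms, DDX39B-201 and DDX39B-202. Both were short of the threshold in the main test. DDX39B-201 had 25.9%, 28.5% and 31.4% in DMSO and 11.9%, 20.3% and 19.2% after auxin (limma adjusted p 0.0569, or 0.0231 with the replicate block). From replicates 2 and 3 alone it was called lower (-0.79, adjusted p 0.0303). DDX39B-202, which begins with an additional 499-base exon at chr6:31541950-31542448, had 9.53%, 14.8% and 14.4% in DMSO and 13.6%, 23.4% and 23.2% after auxin (adjusted p 0.208, or 0.0196 with the block). From replicates 2 and 3 alone it was called higher (0.82, adjusted p 0.0229). The most abundant entry, DDX39B-217, is a 4-exon form of 974 bases annotated as a retained intron. It had 29.8% to 33.6% in DMSO and 31.4% to 44.4% after auxin and was not called (adjusted p 0.396). DDX39B-215, a retained-intron entry of 4027 bases that holds the 2455-base intron 5, had 4.46% to 9.13% in DMSO and 8.57% to 14.7% after auxin, also not called (adjusted p 0.264).

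THOC5 kept its level but 1 of its 7 tested transcripts was called. THOC5-202 had shares of 9.85%, 11.3% and 9.09% in DMSO and 18.9%, 21.1% and 22.8% after auxin. Its share was higher in every auxin library, from a mean of 10.1% ± 1.13 to 20.9% ± 1.95 (SD, n = 3 each), a change of 1.22 ± 0.17 in the log2 ratio (SE; limma adjusted p 0.00454; adjusted p 0.110 in edgeR's diffSpliceDGE transcript test). THOC5-203 differs from it only by an additional 116-base exon at chr22:29550728-29550843, towards the 5′ end of this minus-strand gene. Where that exon lies relative to the start codon was not examined. THOC5-203 had 20.9%, 16.5% and 16.8% in DMSO and 15.6%, 11.7% and 12.1% after auxin. These shares did not overlap but were called only with the replicate block (adjusted p 0.135 without it and 0.0340 with it). The other main forms, THOC5-204, THOC5-210 and THOC5-216, had DMSO means of 27.7%, 23.7% and 14.0% and auxin means of 21.9%, 21.2% and 16.8%, and none was called. THOC5 overlaps NIPSNAP1 on the same strand by 409 bases.

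The remaining THO genes showed no called transcript. None of the 4 transcripts tested in THOC1, 7 in THOC2, 3 in THOC3 and 2 in THOC7 passed the threshold. With the replicate block, 1 of them did: THOC2-209, with mean shares of 5.86% in DMSO and 3.05% after auxin (adjusted p 0.0918 without the block and 0.0189 with it). Over the 9 genes with a tested transcript, 42 transcripts were tested, 6 were called higher and 4 lower. With 12.6% and 6.37% of all transcripts called in those directions, these counts lie near the background. They include DDX39A-204 and DDX39A-212 (higher) and DDX39B-214 and DDX39B-221 (lower), which the filter on mean share let in through 1 group alone.

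ALYREF (ENSG00000183684.7, minus strand, chr17:81887844-81891586), which binds spliced mRNA and hands it to NXF1, had 60.8, 59.2 and 69.0 CPM in DMSO and 39.98, 38.2 and 42.5 CPM after auxin. Each auxin library was well below each DMSO library. The log2 fold change was -0.65 (SE 0.08, edgeR adjusted p 0.000381), from 63.0 ± 5.22 to 40.2 ± 2.16 CPM (SD, n = 3 each). A single 6-exon coding entry, ALYREF-202, held 96.9% to 98.5% of its TPM in DMSO and 98.4% to 99.9% after auxin, so no share could be tested. ALYREF overlaps ANAPC11 on the opposite strand by 797 bases, and ANAPC11 had a log2 fold change of 0.08 ± 0.14 (adjusted p 0.673).

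NXF1 (ENSG00000162231.13, minus strand, chr11:62792123-62806302), the bulk mRNA export receptor, had 56.5, 55.2 and 59.6 CPM in DMSO and 51.1, 50.02 and 54.1 CPM after auxin. The groups did not overlap, and the difference was nearly the same in all 3 same-numbered pairs, with log2 ratios of -0.15, -0.14 and -0.14. This evenness rests on the numbers, whose pairing of 2 and 3 could not be decided. Paired the other way, 55.2 CPM would stand against 54.1 and 59.6 against 50.02, a less even difference. The log2 fold change of -0.14 ± 0.06 missed the threshold (adjusted p 0.0758) and passed it with the replicate block (adjusted p 0.00157). With offsets corrected for GC content the value was -0.041 and was not called without the block (adjusted p 0.656) or with it (adjusted p 0.307). Its partner NXT1 had 11.8, 9.43 and 11.2 CPM in DMSO and 12.4, 10.7 and 10.5 CPM after auxin, with overlapping ranges (log2 fold change 0.05 ± 0.11, adjusted p 0.745).

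NXF1 is known for a transcript that retains intron 10 and is exported with the help of NXF1 protein itself, which binds a constitutive transport element in that intron. The matching entry, NXF1-211, has 20 exons and 4128 bases, is annotated as protein-coding, and holds intron 10 of the 21-exon NXF1-201 (1801 bases, chr11:62798576-62800376). The first 60 and last 60 bases of the intron are shown to identify it, with its first 2 and last 2 bases in capitals (GENCODE 29, GRCh38, minus strand).
NXF1 intron 10 start: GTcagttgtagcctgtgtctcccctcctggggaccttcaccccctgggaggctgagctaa
NXF1 intron 10 end: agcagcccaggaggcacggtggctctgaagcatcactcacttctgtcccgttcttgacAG
NXF1-211 had shares of 8.17%, 6.87% and 5.80% in DMSO and 8.51%, 5.09% and 5.30% after auxin. The ranges overlapped fully, and the change of -0.15 ± 0.27 in the log2 ratio was not called (limma adjusted p 0.818). In TPM it stood at 2.72, 1.52 and 1.45 in DMSO and at 2.08, 0.96 and 1.14 after auxin, again without a call (edgeR adjusted p 0.443). NXF1-201 held 82.1%, 85.1% and 86.2% of the gene in DMSO and 81.9%, 87.3% and 88.0% after auxin (adjusted p 0.792). No entry of NXF1 annotated as a retained intron reached the 2% mean share needed for testing. THOC6-208 and DDX39A-209 and the intron-10 form of NXF1 were thus measured in the same libraries with different outcomes, but a test between genes was not made.

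Compared per length, by mean TPM, the order of the genes also differed between the groups. In DMSO the order was DDX39B (77.3 ± 20.6 TPM), ALYREF (72.03 ± 14.7), THOC2 (68.8 ± 11.1), THOC3 (65.9 ± 22.8), THOC7 (64.1 ± 15.6), THOC5 (35.0 ± 6.85), NXF1 (26.8 ± 5.79), DDX39A (18.5 ± 3.99), THOC1 (11.9 ± 2.45) and THOC6 (4.00 ± 1.25; SD, n = 3 each). The order among the first 5 changed from library to library, so neighbours there did not differ beyond their spread. THOC5 lay above NXF1 and NXF1 above DDX39A in each of the 3 libraries. After auxin THOC2 led (74.5 ± 3.89 TPM), followed by THOC7 (72.2 ± 10.1), THOC3 (65.0 ± 13.8), DDX39B (56.3 ± 13.5), ALYREF (40.6 ± 6.08), THOC5 (30.7 ± 2.77), NXF1 (21.6 ± 2.80), THOC1 (9.94 ± 0.835), DDX39A (2.84 ± 0.746) and THOC6 (0.787 ± 0.549). From ALYREF downwards the auxin ranges of neighbouring genes did not overlap, and DDX39A stood below THOC1. TPM was highest in replicate 1 for all 10 genes in both groups, which widens these SDs.

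The 3 genes that fell shared a high GC content, which played no part in choosing the members. The longest transcript had a GC content of 60.04% in THOC6, 58.3% in DDX39A and 57.5% in ALYREF. Next came NXF1 at 53.7%, THOC5 at 49.7%, DDX39B at 49.5% and THOC3 at 47.0%, while THOC7, THOC1 and THOC2 had 41.4%, 38.6% and 38.3%. Across all genes tested, the 4262 genes with at least 57% GC, a split made after the values were seen, had a median log2 fold change of -0.58. Of these, 51.7% were called lower and 17.7% were lower by at least 4-fold. The 15446 genes under 57% had a median of 0.11, with 20.1% called lower and 1.35% lower by at least 4-fold. With offsets corrected for GC content, an alternative added after the data were seen, the log2 fold change was -1.98 for DDX39A and -1.94 for THOC6 (edgeR adjusted p 8.04e-06 and 0.000706). For ALYREF it was -0.27 and no longer called (adjusted p 0.0720), though it was with the replicate block in the same fit (-0.26, adjusted p 0.000125). DDX39B was called lower with these offsets (-0.31, adjusted p 0.0161), and THOC1 was with the block added (-0.18, adjusted p 0.00629, or 0.0581 without it).

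**Figure D4:**
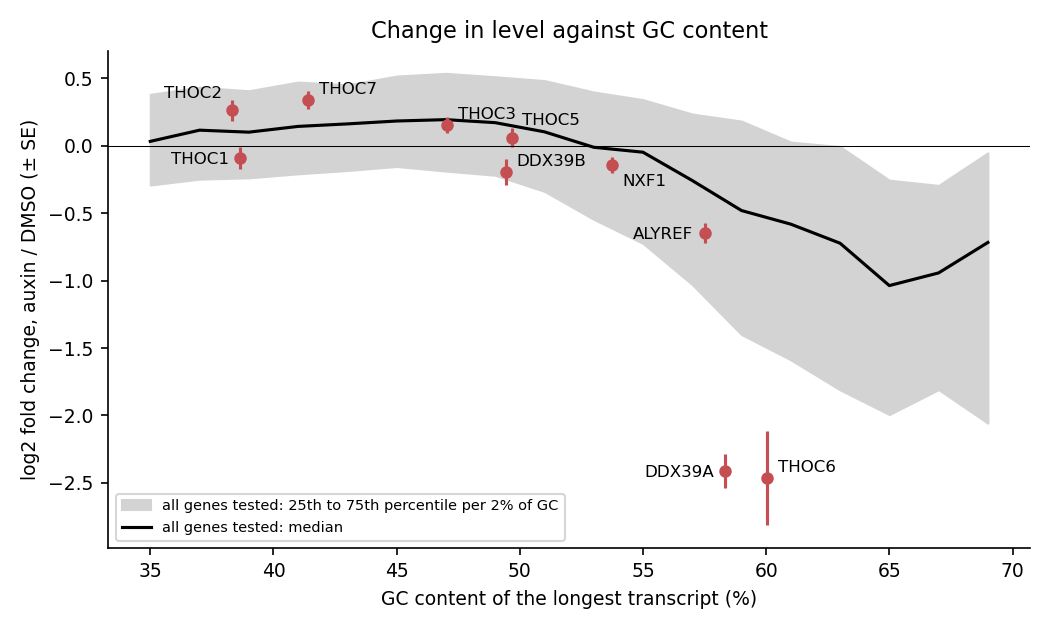
Log2 fold change of the 10 genes with standard errors (red points) against the GC content of the longest transcript, over the median (black line) and the 25th to 75th percentile (grey band) of all genes tested in steps of 2% GC. ALYREF at 57.5% GC lies inside the band of its neighbours, while DDX39A at 58.3% and THOC6 at 60.04% lie below it.

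Other genes of mRNA export gave a wider frame. Of 44 listed genes in 6 groups, 41 could be tested, of which 15 were called higher, 7 lower and 19 not. Over all genes 25.4% were called higher and 26.9% lower. Their median log2 fold change was 0.13, and with the replicate block 23 were called higher and 9 lower, against 35.5% and 34.4% of all genes. None of them both passed the test and changed by 2-fold or more, so the genes named next were picked after their values were seen. In other fits GLE1 and SRRT did pass 2-fold, at -1.10 and 1.16 with GC-corrected offsets (edgeR adjusted p 0.00116 and 0.000179). In the cap-binding group, which marks capped transcripts and recruits TREX, 4 of 5 genes were called higher and none lower, with a median of 0.45. SRRT (ARS2), a partner of the cap-binding complex, rose from 96.3 to 158 CPM in the mean (log2 fold change 0.72 ± 0.07, edgeR adjusted p 0.000172). NCBP2, NCBP1 and ZC3H18 rose by 0.66, 0.45 and 0.33. Among TREX-associated proteins and adaptors, 5 of 10 tested genes were called higher and 1 lower. POLDIP3 and CHTOP, adaptors of the TREX pathway, rose by 0.61 and 0.43. SARNP, a TREX cofactor, fell from 35.8 to 25.2 CPM (-0.51 ± 0.17, adjusted p 0.0387), with overlapping ranges. That call was lost without DMSO replicate 2 or 3 or auxin replicate 1 or 2 (adjusted p 0.0738 to 0.103) and with upper-quartile factors (adjusted p 0.0651).

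In the TREX-2 complex, which links genes to the nuclear pore, 1 of 6 genes was called higher and 2 lower. MCM3AP, its scaffold, fell from 79.8 to 51.7 CPM (-0.63 ± 0.07, adjusted p 0.000227), and PCID2 fell by 0.32. Of 9 pore genes that release mRNA on the cytoplasmic side or line the pore, 2 were called higher and 2 lower. GLE1, the activator of the pore helicase, had the lowest value of all 41 genes. It went from 75.0, 97.3 and 103 CPM in DMSO to 37.2, 49.95 and 52.3 CPM after auxin, without overlap (-0.98 ± 0.16, adjusted p 0.00189). DDX19B, that helicase, fell by 0.47 and RAE1, a partner of NUP98, rose by 0.57. In the exon junction group 2 of 6 were called higher, CASC3 among them (0.52), and none lower. Among receptors and their partners, 1 of 5 was called higher and 2 lower. The lower ones were XPO1 (-0.17, edgeR adjusted p 0.0482) and NXF3. NXF3 had at most 38 expected counts in any library, with 0.0631, 0.0497 and 0.0737 CPM in DMSO and 0.0340, 0.0335 and 0.0316 CPM after auxin. At these levels it likely passed the count filter only through the DMSO libraries, where it was high. Its values are therefore given with no test, although it remains in the counts of genes called lower. On the deposited TPM values, tested with limma, GLE1, SARNP, NCBP2 and SRRT were called, whereas NCBP1, ZC3H18, POLDIP3, CHTOP, MCM3AP, PCID2, DDX19B, RAE1 and CASC3 were not (adjusted p 0.0658 to 0.343). Against these 41 genes, the values of THOC6 and DDX39A were lower than that of any other tested export gene.

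**Figure D5:**
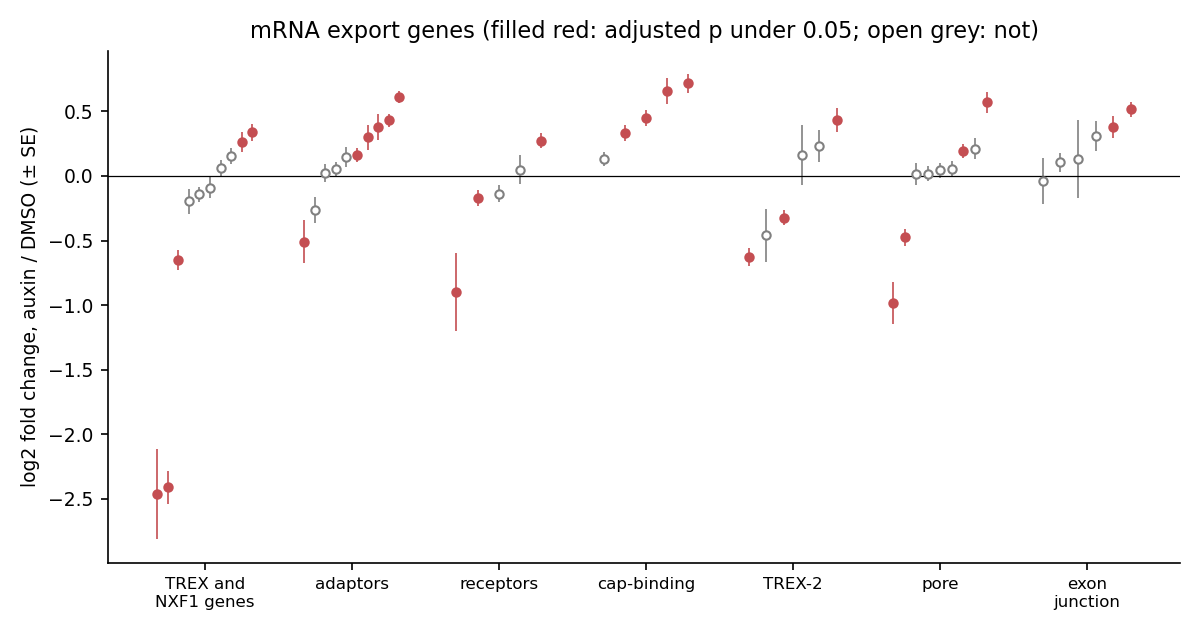
Log2 fold change with standard error of the 10 TREX and NXF1 genes and of the 41 other tested export genes in 6 groups, each group sorted by value, with genes called by edgeR as filled red points and the rest as open grey points. Outside the TREX and NXF1 genes no value falls under -0.98, and 4 of the 5 cap-binding genes are called higher.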

How the data were processed

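RNA was sequenced from 6 HCT116 libraries, 3 per group. Gene and transcript tables were deposited separately for every library. The authors' expected counts in them are not normalized, their TPM values are scaled by transcript length and to the same total, and each count has a posterior standard deviation, per the file headers. Other deposited columns served at most to describe the layout. The columns are those of RSEM output. The submitters' processing notes name bcl2fastq 2.20, STAR, DESeq2 and the builds GRCh38 and hg38, with no role or order; the annotation and the strand setting are not given in the sources used here. Of 59526 gene entries, 58780 matched GENCODE 29, whose coordinates, transcript types and sequences (GRCh38) were used. Entries outside it took 0.000255% to 0.00111% of counts and were left out.

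Expected counts were rounded, filtered with filterByExpr, scaled with TMM factors and tested with edgeR 4.0.16 (glmQLFit, glmQLFTest) in R 4.3.3. A gene was called at a p under 0.05 after Benjamini-Hochberg adjustment over all genes tested. CPM values are the rounded counts scaled by these factors. Standard errors of fold changes were derived from the F statistic. Transcript shares were tested with limma 3.58.1 on the log2 ratio of a transcript's TPM to that of the other transcripts of its gene, each plus 0.1 TPM, in genes with a mean of at least 1 TPM and transcripts with a mean share of at least 2%. Both procedures were tested on simulated data. The gene test found 67.8% of 2-fold and 42.9% of 1.5-fold changes, while 3.05% of the genes it called were unchanged. The share test found 69.7% of changes of 3 in the log2 ratio but only 4.0% of changes of 1. Among the transcripts it called, 6.87% were unchanged. For a share with a change of about 1 or less, the lack of a call is therefore no evidence that it stayed the same. Alternatives included other scalings, DESeq2 1.42.0, limma on log2 TPM, other filters, thinned counts, each library left out in turn, and GC-corrected offsets.

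Replicates are biological replicates by the labels, and p-values measure the spread between these samples. Chi-square per degree of freedom between replicates was 36.8 to 609.4, so none was the same library. Same-numbered libraries deviated together from their group means (correlations 0.65, 0.27 and 0.28 for numbers 1, 2 and 3). Only number 1 stood apart, since DMSO 3 with auxin 2 gave 0.31 and DMSO 2 with auxin 3 gave 0.18. The numbers were taken to pair the samples, as every same-numbered pair exceeded 0.1. Both mismatched pairs just given exceeded it too, so this rule could not decide the pairing of numbers 2 and 3. The fit without the block was the main one, and blocked values are given where they change a call. The members, the lists and the tests were chosen with earlier results of these data known. All 10 member genes were to be described, with transcripts of at least 5% mean share; those of THOC1, THOC2, THOC3 and THOC7 are given as counts. Other export genes were to be named at a called change of at least 2-fold, and none reached it in the main test. 1 further leukocyte marker, beside the 3 given, is not reported here.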

Additional observations from a re-analysis of the deposited data

How the results depend on the processing

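Among 43 count comparisons that moved by over 1.5 times and 24 single values that changed sign, none concerned the direction of THOC6, DDX39A, ALYREF, THOC2 or THOC7. Tests on log2(TPM + 1) and log2(TPM + 0.1) called fewer genes, 970 and 1017 higher and 2966 and 3223 lower, with 0 and 0 members higher, 2 and 2 other export genes higher and 3 and 3 lower. Upper-quartile factors, which moved the median of all genes by 0.12 (the TPM scales moved it by -0.14 and -0.15), called 4 members higher and 23 other export genes higher and 4 lower. With the replicate block there were 5 members lower, 23 other export genes higher, 7 member transcript shares lower and 263 genes with a lower retained-intron share. In the gene and share tests without GC correction, pairing by replicate number changed no member's call other than those given above with the block. In the tests of transcript levels it changed others, such as DDX39B-202 (adjusted p 0.375 without and 0.0186 with the block) and THOC7-201 (0.412 and 0.0154). With GC-corrected offsets and the block, 5 members (ALYREF, THOC1, THOC6, DDX39A and DDX39B) and 11 other export genes were lower. GLE1 also passed 2-fold on both TPM scales (-1.08 and -1.13) and with no filter, and it was -1.10 to -0.84 with 1 library left out. Raising the gene minimum to 5 TPM left 3578 transcript shares higher, and 654 higher and 53 lower retained-intron shares, since fewer genes are tested. Lower retained-intron shares numbered 198 with 1 TPM added and 170 from replicates 2 and 3 alone. Leaving out 1 library gave 1 to 3 members higher, 4 to 7 other export genes lower, 1622 to 2542 transcript shares lower, 2 to 3 member shares lower and 39 to 120 retained-intron shares lower. No value that changed sign was called in either fit. They were the log2 fold change of THOC1 with upper-quartile factors (0.030), of THOC3 with GC-corrected offsets (-0.017, and -0.019 with the block), of THOC5 on both TPM scales (-0.17 and -0.17) and with GC-corrected offsets (-0.042, and -0.043 with the block), and of NXT1 on both TPM scales (-0.094 and -0.10) and with 1 library left out (-0.063 to 0.12). With 1 TPM added, the log2 ratio changed sign for DDX39A-202 (0.60), THOC6-207 (0.46) and the retained-intron share of THOC1 (0.030) and NXF1 (0.079). That of THOC6-207 was 0.43 from replicates 2 and 3 alone and -0.48 to 0.30 with 1 library left out. The retained-intron share of NXF1 was 0.059 on expected counts, and with 1 library left out it was -0.18 to 0.028, and -0.40 to 0.15 for THOC1. The cause of these shifts was not tested. Of the other single values, 661 kept direction and side of the threshold, 52 lost a call and 20 gained one. The lost calls include those of THOC2, THOC7 and ALYREF given above. A further 133 counts moved by 1.5 times or less. Low counts limit THOC6 most, with 113 expected counts in the shallowest library, and the split of TPM between overlapping entries rests on the authors' model.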
